A study of Mus musculus with 12 samples.

Results

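The B cell identity genes were followed across 12 libraries of sorted mouse basophil-lineage cells. Pax5, Ebf1, Ms4a1, Cd79a, Cd79b, Ighm and Igkc were taken by symbol, and all 7 were among the 32227 genes of the count table and among the 15083 genes that passed the filter on low counts. Bulk RNA-seq had been carried out on 4 groups of 3 libraries, all from C57BL/6J WT animals without further treatment. The groups were CD200R3+cKit-CLEC12Ahi CD34+ basophil progenitors (BaPs) of the bone marrow (BM), CD34-CLEC12AhiCD9lo pre-basophils of the BM, and CD34-CLEC12AloCD9hi mature basophils of the BM and, separately, of the spleen. Each library was a pool of several animals, so p-values measure how much such pools varied, and the age of the animals is not in the sample labels. The study described no depletion of B cells before this sort, whereas it described one that included an antibody to B220 for single-cell libraries from its Mcpt8 reporter mice. In its flow cytometry the study defined BaPs as lineage-negative cells. Whether that gate was used in sorting these libraries is not stated in its bulk RNA-seq methods.

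B cells recognise antigen through the B cell receptor, a membrane immunoglobulin made of a heavy and a light chain that is held at the surface by the signalling partners CD79A and CD79B. The transcription factors EBF1 and PAX5 establish and keep B cell identity, and MS4A1 (CD20) appears on the surface as B cells mature. The spleen is one of the main sites of resting B cells, which display IgM and IgD, while plasma cells secrete antibody and reside largely in the BM. Basophils carry the high-affinity IgE receptor and hold antibody made by other cells on their surface.

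The members lie on 6 chromosomes of the GRCm38 assembly in GENCODE M21, and each is annotated as a protein-coding gene apart from Ighm and Igkc, which are constant region genes. Pax5 (ENSMUSG00000014030.15) spans chr4:44524757-44710487 on the minus strand and Ebf1 (ENSMUSG00000057098.14) spans chr11:44617317-45008091 on the plus strand. Ms4a1 (ENSMUSG00000024673.9) lies at chr19:11249675-11266241 on the minus strand. Cd79a (ENSMUSG00000003379.7) lies at chr7:24897381-24902197 on the plus strand and Cd79b (ENSMUSG00000040592.11) at chr11:106311341-106314762 on the minus strand. Ighm (ENSMUSG00000076617.9) lies at chr12:113418558-113422730 on the minus strand and Igkc (ENSMUSG00000076609.2) at chr6:70726435-70726966 on the plus strand. Igkc overlaps Gm30211 on its own strand, so part of its reads could belong to that gene, and Pax5 holds the microRNA gene Mir5120 on its own strand. 

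The RefSeq promoter table (GRCm38.p6, the 250 bases before a transcript start) held 4 windows for 3 of the 7 members, namely Pax5, Cd79a and Ebf1. All 250 bases of each window were searched on both strands for the EBF1 palindrome and its looser form TCCCNNGNG, for the octamer ATGCAAAT, for the GATA letters AGATAAG and for CAGCTG. A match in the Cd79a window was the single hit among the members, and the absence of a match says only that these letters do not stand in the window. It is shown because Cd79a was the receptor subunit that followed the other B cell genes across libraries, with the match to TCCCNNGNG on the opposite strand in capitals. Of its window the 134 bases ahead of the GENCODE gene start are printed, chr7:24897247-24897380, plus strand:
Cd79a: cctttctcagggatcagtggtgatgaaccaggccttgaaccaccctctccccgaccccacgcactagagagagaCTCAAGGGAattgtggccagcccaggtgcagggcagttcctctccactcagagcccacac
TCCCNNGNG stood in 18.1% of all 32851 windows, so a match there is common, and the EBF1 palindrome stood in 0.779%, the octamer in 1.6%, AGATAAG in 2.74% and CAGCTG in 13.0%.

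Immunoglobulin transcripts also carry a variable (V) segment, and the 3 V segments with the most counts over all libraries were Igkv8-27 (1542 counts), Igkv17-121 (690) and Ighv1-64 (674). They are shown as germline coding bases from GENCODE M21 because they are transcribed joined to constant genes such as Igkc and Ighm. Capitals mark the longest run that is identical in another germline V segment among 217 compared, where a read inside the run could belong to either, with 40 bases on each side where the coding sequence reaches that far.
Igkv8-27 (gene at chr6:70171809-70172270, minus strand; coding bases 141 to 288; run shared with Igkv8-21): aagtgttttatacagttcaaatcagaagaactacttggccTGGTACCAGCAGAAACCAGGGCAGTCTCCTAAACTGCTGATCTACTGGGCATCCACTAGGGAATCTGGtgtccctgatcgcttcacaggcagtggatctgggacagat
Igkv17-121 (gene at chr6:68036812-68037318, plus strand; coding bases 87 to 309; run shared with Igkv17-127): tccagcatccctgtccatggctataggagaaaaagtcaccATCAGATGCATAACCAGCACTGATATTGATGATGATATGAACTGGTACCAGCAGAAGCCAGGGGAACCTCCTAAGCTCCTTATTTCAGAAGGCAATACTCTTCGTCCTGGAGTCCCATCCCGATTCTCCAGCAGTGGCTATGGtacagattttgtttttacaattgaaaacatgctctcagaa
Ighv1-64 (gene at chr12:115507545-115508031, minus strand; coding bases 1 to 132; run shared with Ighv1-61): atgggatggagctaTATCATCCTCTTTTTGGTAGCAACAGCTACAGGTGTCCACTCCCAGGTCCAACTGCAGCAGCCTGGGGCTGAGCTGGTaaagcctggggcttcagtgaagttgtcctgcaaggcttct
The shared runs were 68, 143 and 78 bases long.

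Library totals ran from 3596108 to 8151030 counts, and a count of 0 allowed up to 3 counts, or 0.287 to 0.951 CPM (counts scaled to a common library total, after TMM normalisation, the trimmed mean of M values). BaP replicate 3 stood apart from the other libraries before any member was considered. It held counts for 26743 genes, where the others held them for 21911 to 24704, and it differed from BaP replicates 1 and 2 by a chi-square of 35.0 and 30.2 per degree of freedom, against 4.16 to 11.2 for the other pairs within groups. The groups were sorted as basophils, and the basophil genes Mcpt8, Prss34, Ms4a2 and Fcer1g, which encode 2 granule proteases and 2 chains of the IgE receptor, had at least 295 CPM in every library. All 13 listed basophil genes had a count in every library, but not all were as abundant, with Cd200r4 as low as 19.3 CPM among BaPs. Results that rest on BaP replicate 3 are therefore given with and without it.

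Apart from Cd79b, the B cell genes were high in the 3 spleen libraries and in BaP replicate 3 and lower in each of the other 8 libraries. Together the 7 genes took 0.0446%, 0.0490% and 0.0244% of all counts in spleen replicates 1 to 3, with exact binomial 95% intervals of 0.0429 to 0.0462, 0.0473 to 0.0508 and 0.0233 to 0.0255. They took 0.0404% (0.0390 to 0.0418) in BaP replicate 3. In the other 8 libraries they took 0.00395% to 0.00611%. The intervals cover counting error only, since PCR copies of a molecule were not told apart. In bulk libraries, the number of cells that held this RNA and its amount per cell cannot be told apart. Which cells held it was not tested.

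**Figure D1:**
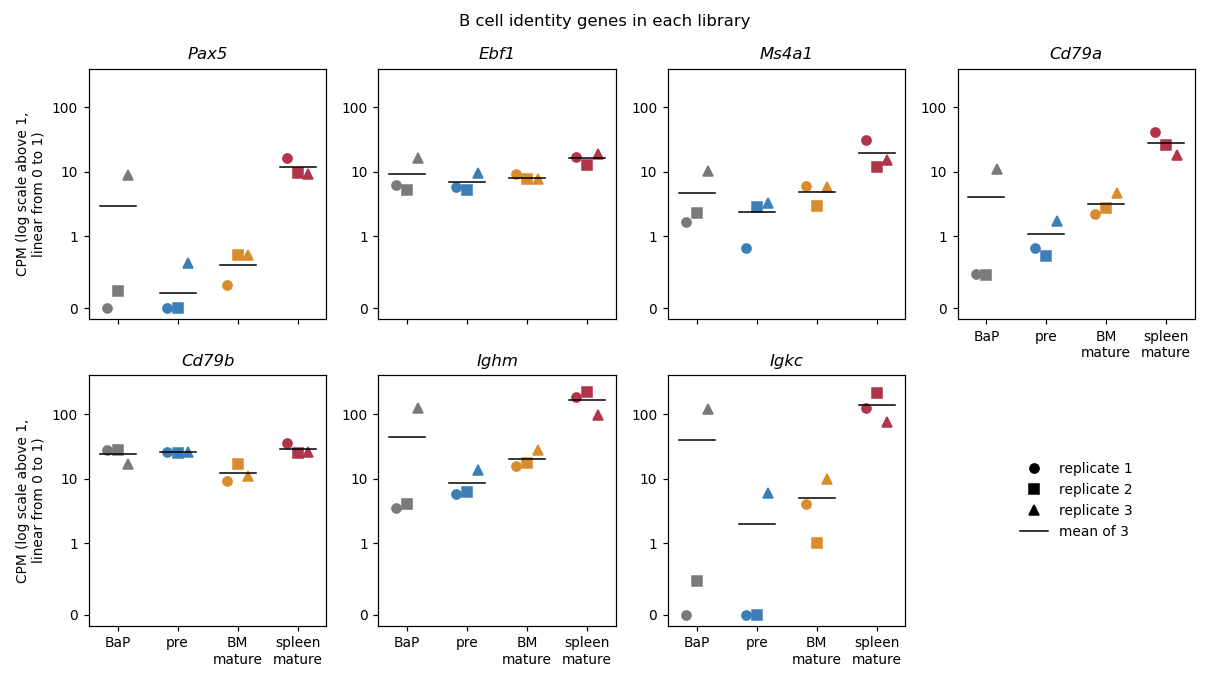
CPM of each of the 7 genes (vertical axis, log scale above 1 and linear from 0 to 1) in the 12 libraries by group, with symbols for the replicate and a bar for the mean of 3. Spleen libraries and BaP replicate 3 were high for Pax5, Ms4a1, Cd79a, Ighm and Igkc, with BaP replicate 3 at 8.81 to 126 CPM, while Cd79b was spread much more evenly over the groups.

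The transcription factor genes came first in the order of roles. Pax5 had 102, 59 and 71 counts in spleen replicates 1 to 3, which is 16.2, 9.68 and 9.38 CPM. It had 1, 3 and 4 counts in BM mature replicates 1 to 3, no count in 2 of the 3 pre-basophil libraries and 4 in the third, and 0, 1 and 92 counts in BaP replicates 1 to 3. All 3 spleen libraries lay above every other library, and BaP replicate 3, at 8.81 CPM, came next. Pax5 averaged 11.8 ± 3.87 CPM in spleen mature basophils and 0.604 ± 0.248 in BM mature basophils (SD, n = 3 each), a log2 fold change of 4.17 (SE 1.07, adjusted p = 0.0326 in edgeR's quasi-likelihood test). It was the member nearest to absent outside these 4 libraries, at or below the 3-count floor in 6 of the other 8.

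Ebf1 had 107, 79 and 144 counts in the spleen libraries (17.0, 13.0 and 19.0 CPM) and 29, 31 and 41 in the BM mature libraries (9.19, 7.73 and 7.64 CPM). Pre-basophils had 5.84, 5.33 and 9.55 CPM, and BaP replicates 1 to 3 had 6.18, 5.16 and 16.2 CPM. The spleen libraries again lay above the BM mature ones, but Ebf1 was present in every library, with at least 21 counts. Its levels were 16.3 ± 3.09 and 8.19 ± 0.870 CPM, and the log2 fold change of 1.01 (SE 0.37) did not pass the test (adjusted p = 0.111). The gene Gm12158 lies within Ebf1 on the other strand, and the mapping was restricted to 1 read orientation.

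Ms4a1, which encodes the surface protein CD20, had 198, 72 and 117 counts in the spleen libraries (31.5, 11.8 and 15.4 CPM). It had 19, 12 and 31 counts in the BM mature libraries (6.02, 2.99 and 5.78 CPM), between 3 and 21 counts in the pre-basophil libraries, and 7, 10 and 107 in BaPs. The spleen and BM mature libraries did not overlap, with spleen replicate 1 far above the other 2. The levels were 19.6 ± 10.5 and 4.93 ± 1.68 CPM and the log2 fold change was 1.99 (SE 0.58), which missed the threshold with an adjusted p of 0.0515.

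The receptor subunits behaved differently from each other. Cd79a had 261, 159 and 137 counts in the spleen libraries (41.5, 26.1 and 18.1 CPM) and 7, 11 and 25 in the BM mature libraries (2.22, 2.74 and 4.66 CPM). It had 3, 3 and 11 counts in pre-basophils and 2, 2 and 117 counts in BaPs. Every spleen library exceeded every other library, and BaP replicate 3 had 11.2 CPM. Cd79a averaged 28.6 ± 11.9 CPM in spleen and 3.21 ± 1.29 in BM mature basophils, and rose by a log2 fold change of 3.09 (adjusted p = 0.0258).

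Cd79b had 226, 152 and 199 counts in the spleen libraries (36.0, 24.9 and 26.3 CPM) and 29, 67 and 59 in the BM mature libraries (9.19, 16.7 and 11 CPM). Pre-basophils had 26.2, 25.2 and 25.8 CPM, and BaP replicates 1 to 3 had 28.1, 27.7 and 16.8 CPM. BaP replicates 1 and 2 thus had 118 counts of Cd79b each, beside 2 counts each of its partner Cd79a. Cd79b was lowest in the BM mature libraries, and BaP replicate 3 held less of it than BaP replicates 1 and 2, next to BM mature replicate 2. Its level was 29.1 ± 6.01 CPM in spleen and 12.3 ± 3.92 in BM mature basophils, a log2 fold change of 1.23 (SE 0.24, adjusted p = 0.0108).

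The immunoglobulin genes gave the largest signals. Ighm, the constant region of IgM, had 1151, 1321 and 746 counts in the spleen libraries (183, 217 and 98.5 CPM) and 50, 69 and 147 in the BM mature libraries (15.9, 17.2 and 27.4 CPM). Pre-basophils had 5.84, 6.30 and 13.8 CPM, and BaP replicates 1 to 3 had 15, 17 and 1313 counts. Spleen and BM mature libraries were well separated, with 166 ± 60.9 against 20.2 ± 6.32 CPM. The log2 fold change was 3.02 (SE 0.92) and the adjusted p 0.0606.

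Igkc, the kappa light chain constant region, had 782, 1284 and 573 counts in the spleen libraries (124.5, 211 and 75.7 CPM) and 13, 4 and 53 in the BM mature libraries (4.12, 0.997 and 9.88 CPM). It had 0, 0 and 37 counts in pre-basophils and 0, 2 and 1258 in BaPs. The lowest spleen library thus lay above the highest BM mature library, and BaP replicate 3, at 120.5 CPM, lay between spleen replicates 1 and 3. The levels were 137 ± 68.4 and 5.0 ± 4.51 CPM, with a log2 fold change of 4.67 (SE 1.39) and an adjusted p of 0.0554.

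Per kilobase of annotated exon, the spleen levels ran from Igkc (257.5 ± 128.5 CPM per kilobase) and Ighm (88.1 ± 32.3) through Cd79b (20.3 ± 4.20), Cd79a (19.6 ± 8.18) and Ms4a1 (3.17 ± 1.69) to Ebf1 (1.68 ± 0.316) and Pax5 (1.33 ± 0.437). The spreads of the 2 receptor subunits overlapped, as did those of Ms4a1 and Ebf1 and those of Ebf1 and Pax5. In pre-basophils Cd79b led this order with 18 ± 0.338 CPM per kilobase, ahead of Ighm (4.59 ± 2.38). Evenness of read coverage along transcripts was not tested, so this order is approximate.

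All 7 genes were higher in every spleen library than in every BM mature library, where 16.6% of all tested genes were separated in that direction. Pax5, Cd79a and Cd79b rose at an adjusted p under 0.05, which is 3 of 7, against 7.83% of all tested genes called in either direction and 3.16% called higher. All 7 had an unadjusted p under 0.05. The median log2 fold change was 3.02 over the members and 0.01 over all tested genes. The calls moved with a library outside this comparison, in a fit where the 12 libraries share 1 estimate of the spread. Without BaP replicate 3 all 7 passed, where 18% of all tested genes were called, 7.99% higher and 10% lower, with adjusted p from 2.86e-06 for Ighm to 0.00522 for Ebf1 and almost the same fold changes, among them 4.15 for Pax5, 3.0 for Ighm and 4.65 for Igkc. Leaving out 1 of the 6 compared libraries ended the call of Pax5 in each case (adjusted p up to 0.124) and that of Cd79a (up to 0.106), and Cd79b was lost without BM mature replicate 1 (0.0654) or 3 (0.0511).

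**Figure D2:**
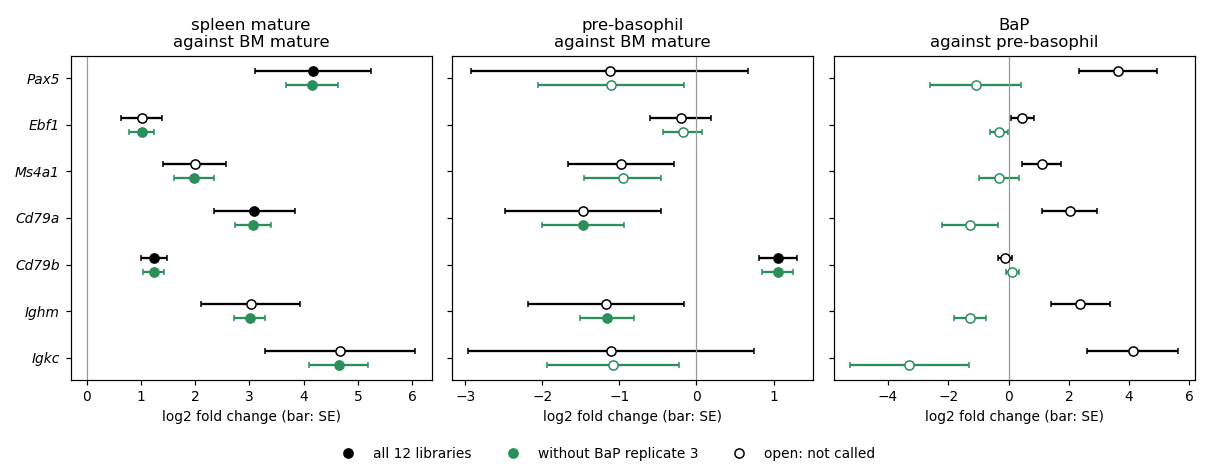
Log2 fold change (horizontal axis, bar for the SE) of each gene in 3 comparisons, fitted on all 12 libraries (black) and without BaP replicate 3 (green), with filled symbols for an adjusted p under 0.05. Spleen against BM mature was close in size in both fits and had 3 and 7 called genes, and in BaP against pre-basophil every gene changed sign.

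Spleen mature basophils were also set against pre-basophils, a comparison that shares the spleen libraries with the one above. Of the 7 members 6 rose and Cd79b did not pass, in a comparison in which 45.7% of all tested genes were called and 20.5% were called higher. The log2 fold changes were 5.29 for Pax5 (SE 1.19, adjusted p = 0.00269), 4.56 for Cd79a (SE 0.85, adjusted p = 0.000733), 4.19 for Ighm (SE 0.99, adjusted p = 0.00375) and 5.78 for Igkc (SE 1.52, adjusted p = 0.0070). Pax5 and Igkc had no count in pre-basophil replicates 1 and 2, so the pre-basophil side of both rests on replicate 3. Ms4a1 rose by 2.97 (adjusted p = 0.00166) and Ebf1 by 1.21 (adjusted p = 0.016), though the call of Ebf1 was lost without pre-basophil replicate 1 or 2 or without spleen replicate 3 (adjusted p up to 0.0694). Cd79b had 29.1 against 25.7 ± 0.484 CPM, a log2 fold change of 0.18 (SE 0.23, adjusted p = 0.544).

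Within the BM, Cd79b was the one member called between pre-basophils and mature basophils in the fit on all 12 libraries. Its 3 pre-basophil libraries, at 25.2 to 26.2 CPM, lay above the BM mature libraries, at 9.19 to 16.7 CPM. The log2 fold change was 1.06 (SE 0.25, adjusted p = 0.00582) in a comparison in which 27.3% of all tested genes were called, and Cd79b was called in 21 of 21 alternatives. The other 6 members had lower means in pre-basophils, and only Cd79a and Ighm were separated in that direction, as were 21.5% of all tested genes. The log2 fold changes were -1.47 for Cd79a (SE 1.01, adjusted p = 0.311) and -1.17 for Ighm (SE 1.01, adjusted p = 0.426), and without BaP replicate 3 both were called, at adjusted p of 0.039 and 0.0146, in a fit that called 35.7% of all tested genes, with 15.8% called lower in pre-basophils. 

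No member was called between BaPs and pre-basophils, in a comparison in which 7.08% of all tested genes were called, 2.79% higher and 4.29% lower in BaPs. In edgeR's quasi-likelihood test 4 members (Pax5, Cd79a, Ighm and Igkc) had an unadjusted p under 0.05, and DESeq2 and limma-voom called none either. The means were drawn by 1 library. Ighm averaged 44.5 ± 70.5 CPM in BaPs and 8.67 ± 4.50 in pre-basophils, with a log2 fold change of 2.38, and without BaP replicate 3 that became -1.28 (adjusted p = 0.13). Igkc went from 4.12 to -3.29 and Pax5 from 3.62 to -1.10 in the same way, and the other 4 also changed sign. BaP replicates 1 and 2 had 168 and 172 counts over the 7 genes, of which 118 each were Cd79b.

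Most members kept company across the libraries and Cd79b did not. Over the 12 libraries, Pearson's r of log2 CPM (prior count 2) was 0.892 to 0.986 for the 15 pairs without Cd79b, and -0.007 to 0.186 for the 6 pairs with it. Without BaP replicate 3 the ranges were 0.896 to 0.993 and 0.068 to 0.277. These values are a description, since the libraries fall into groups and share their depth. Ebf1 followed the others but from a higher base, as it was never below 5.16 CPM.

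**Figure D3:**
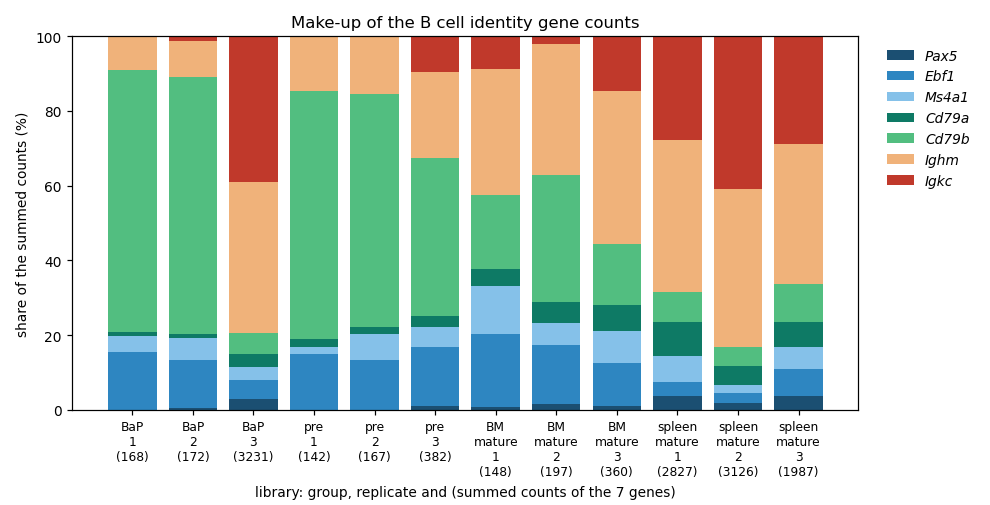
Share of each gene (vertical axis, percent) in the summed counts of the 7 genes for each of the 12 libraries, with the summed counts in brackets. Cd79b and Ebf1 made up most of the counts in BaP replicates 1 and 2 and pre-basophil replicates 1 and 2, and Ighm and Igkc most of those in the spleen libraries and BaP replicate 3.

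The proportions among the members also differed between the libraries that were high. Igkc made up 27.7% (exact binomial 95% interval 26.0 to 29.4) of the member counts in spleen replicate 1, 41.1% (39.3 to 42.8) in replicate 2 and 28.8% (26.9 to 30.9) in replicate 3. Ms4a1 made up 7.0% (6.09 to 8.01), 2.3% (1.81 to 2.89) and 5.89% (4.89 to 7.02). Spleen replicate 2 therefore had the highest immunoglobulin counts and the lowest share of Ms4a1. Among the 5 members other than Ighm and Igkc, Cd79a made up 29.2% (26.2 to 32.3), 30.5% (26.6 to 34.7) and 20.5% (17.5 to 23.8) in spleen replicates 1 to 3 and 17.7% (14.9 to 20.9) in BaP replicate 3. Ebf1 made up 25.6% (22.3 to 29.1) there and 12% (9.91 to 14.3), 15.2% (12.2 to 18.5) and 21.6% (18.5 to 24.9) in the spleen libraries. Leaving out Ighm and Igkc, the remaining 5 took 0.0141%, 0.00817% and 0.0082% of all counts in spleen and 0.00824% in BaP replicate 3.

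The other immunoglobulin constant genes separated BaP replicate 3 from the spleen libraries. Heavy chain counts in spleen were nearly all Ighm and Ighd, the isotypes of B cells that have not switched class. Ighm made up 93.0% (91.5 to 94.4), 95.9% (94.8 to 96.9) and 87.6% (85.2 to 89.7) of the heavy chain constant counts in spleen replicates 1 to 3. Ighd made up 6.06% (4.80 to 7.54), 2.90% (2.08 to 3.93) and 9.98% (8.05 to 12.2), and the class-switched genes (Ighg2b, Ighg2c, Ighg3 and Igha) made up 0.889% (0.445 to 1.59), 1.16% (0.666 to 1.88) and 2.46% (1.53 to 3.74). In BaP replicate 3 Ighm made up 56.0% (54.0 to 58.0), Ighg2b 26.4% (24.6 to 28.2), Igha 15.9% (14.5 to 17.5) and Ighd 1.11% (0.726 to 1.62) of 2345 counts. Switched heavy chains thus held 42.9% (40.9 to 44.9) in that library. BM mature replicate 1 also had Igha at 37.9% (27.7 to 49.0), but of 87 counts only. Ighg1 and Ighe were not among the genes counted under those symbols, so the class-switched shares do not cover them.

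Light chains differed as well. Lambda constant genes made up 29.3% (26.6 to 32.1), 9.45% (7.98 to 11.1) and 27% (23.9 to 30.3) of the light chain constant counts in spleen replicates 1 to 3, against 5.91% (4.71 to 7.31) in BaP replicate 3. The lambda genes are near-identical copies and the handling of reads shared among them is not stated, so their sum is safer than each of them.

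**Figure D4:**
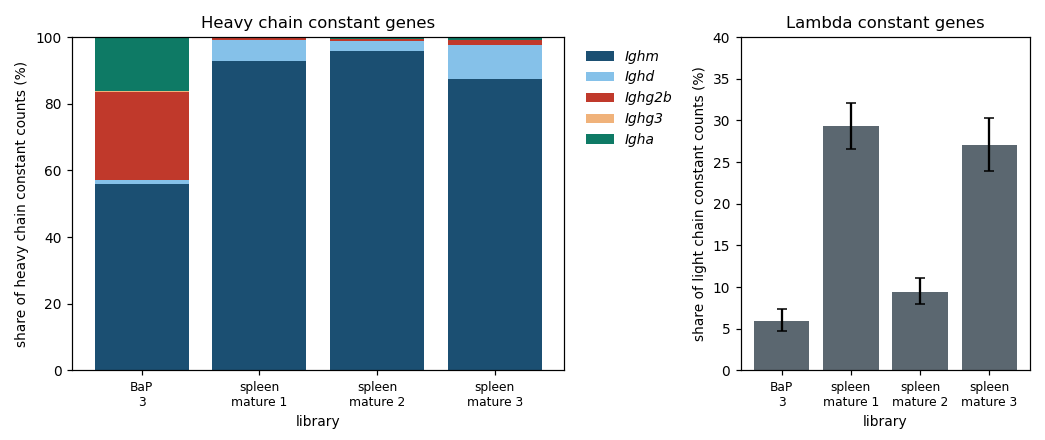
Left, share of each heavy chain constant gene (vertical axis, percent) in BaP replicate 3 and spleen replicates 1 to 3. Right, share of lambda in the light chain constant counts with exact binomial 95% intervals, at 5.91% in BaP replicate 3 and 9.45% to 29.3% in the spleen libraries.

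The leading V segment and its share differed between the high libraries. Of 84 kappa V segments in the table, 64, 47 and 50 had a count in spleen replicates 1 to 3. Igkv8-27 alone held 393 of 802 kappa V counts in replicate 1 (49%, interval 45.5 to 52.5), 1069 of 1276 in replicate 2 (83.8%, 81.6 to 85.8) and 47 of 249 in replicate 3 (18.9%, 14.2 to 24.3), so it was the leading kappa segment in all 3 pools at very unequal shares. BaP replicate 3 had 9 counts of Igkv8-27, and its leading kappa segment was Igkv17-121 with 634 of 1858 counts (34.1%, 32.0 to 36.3), which held 2.12% (1.24 to 3.37), 0.94% (0.487 to 1.64) and 5.62% (3.11 to 9.25) in spleen replicates 1 to 3. Its leading heavy chain segment was Ighv1-64 with 631 of 1532 counts (41.2%, 38.7 to 43.7). Ighv1-64 also led in spleen replicate 3, with 9 of 60 counts (15%, 7.1 to 26.6), and held 4.41% (2.3 to 7.58) and 4.46% (2.46 to 7.37) in spleen replicates 1 and 2. In spleen replicate 2 the leading heavy chain segment was Ighv1-53 with 189 of 314 counts (60.2%, 54.5 to 65.6), which held 16.2% (12 to 21.1) in replicate 1 and 6.67% (1.85 to 16.2) in replicate 3. The remaining 8 libraries had 3 to 32 heavy and 0 to 70 kappa V counts each.

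Other genes of mature B cells moved with the members in spleen. Of 29 listed, 26 were tested and 16 rose against BM mature basophils while none fell, with a median log2 fold change of 2.76. With all libraries 3.16% of all tested genes were called higher. Without BaP replicate 3, 20 rose and 1 fell, in a fit that called 7.99% of all tested genes higher and 10% lower. Cr2, the complement receptor of mature B cells, rose by 2.88 (SE 0.47, adjusted p = 0.00491) and had 58, 25 and 34 counts in spleen, yet only 5 in BaP replicate 3. Ighd (4.07) and Iglc1 (4.10) rose too, at adjusted p of 0.00598 and 0.0107. Cd37, the most abundant gene of that list in spleen (225 ± 20.9 CPM), was at 286 ± 9.67 CPM in BM mature basophils and is widely expressed in blood cells.

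Signalling genes downstream of the receptor moved less. Of 21 tested, 6 rose and 15 did not pass, with a median log2 fold change of 0.26, where 3.16% of all tested genes were called higher. Without BaP replicate 3, 9 rose and 1 fell, in a fit that called 7.99% of all tested genes higher and 10% lower. The 6 included Blk (4.23, adjusted p = 0.0244), a kinase found largely in B cells, Cd22 (2.11, adjusted p = 0.0202), an inhibitory coreceptor, and Ptpn6 (0.71, adjusted p = 0.00293), a phosphatase used by many blood cells. Most genes of this list were expressed in every group, at a median gene level of 35.9 to 71.0 CPM in a library. Pik3cd, the highest of the list in spleen, had 224 ± 27.1 against 137 ± 20.6 CPM and did not pass (adjusted p = 0.13), and Dapp1, the highest in BaP replicate 3, had 174 ± 11.8 against 182 ± 20.9 CPM.

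The MHC class II genes, which B cells and other antigen-presenting cells express, rose in 6 of 8 cases with a median log2 fold change of 2.68. The count was the same without BaP replicate 3. Of all tested genes, 3.16% were called higher with all libraries and 7.99% without BaP replicate 3. Cd74, the invariant chain, had 311, 173 and 191 CPM in the spleen libraries and 6.98 to 22.4 CPM in the BM mature ones (log2 fold change 3.76, SE 0.59, adjusted p = 0.00398). H2-Aa rose by 4.07 (adjusted p = 0.000747), H2-Eb1 by 3.97 (adjusted p = 0.00108) and H2-Ab1 by 2.59 (adjusted p = 9.8e-05). Basophils can express class II genes too, and which cells gave these counts was not tested.

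Of 15 listed genes of B cell precursors, 8 were tested. Vpreb1, Vpreb2, Vpreb3, Igll1, Rag1, Dntt and Bst1 were below the filter, so a change in them was not tested. None of the 8 rose in spleen by edgeR, at an unadjusted p under 0.05 either. Nor did any rise by limma-voom or by DESeq2, which gave an adjusted p for 7. By edgeR 3.16% of all tested genes were called higher, so 0 of 8 lies near that share. Among the 8, 2 fell, namely Myb (-1.34, adjusted p = 0.0127) and Cd93 (-0.54, adjusted p = 0.0452), which progenitors of other lineages also express. Il7r, an interleukin receptor chain and the highest of this list in spleen, had 105.0 ± 8.63 against 143 ± 13.7 CPM (adjusted p = 0.554). Dntt, the terminal transferase, and Igll1, part of the surrogate light chain, had 4.69 and 4.12 CPM in BaP replicate 3 and at most 0.528 CPM elsewhere. Genes of plasma cells passed in 2 of 7 tested cases, Mzb1 (5.04, adjusted p = 0.0314) and Irf4 (4.50, adjusted p = 0.0289). Jchain, which joins secreted IgM and IgA, had 103, 276 and 39 counts in spleen and 498 in BaP replicate 3, and did not pass (adjusted p = 0.103). Xbp1, a regulator of secretion in many cells, had 67.7 ± 2.59 against 71.2 ± 12.9 CPM. Of the 6 tested constant genes, which include Ighm and Igkc, 4 rose (Ighd, Iglc1, Iglc2 and Iglc3). All 6 rose without BaP replicate 3, in a fit that called 7.99% of all tested genes higher.

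**Figure D5:**
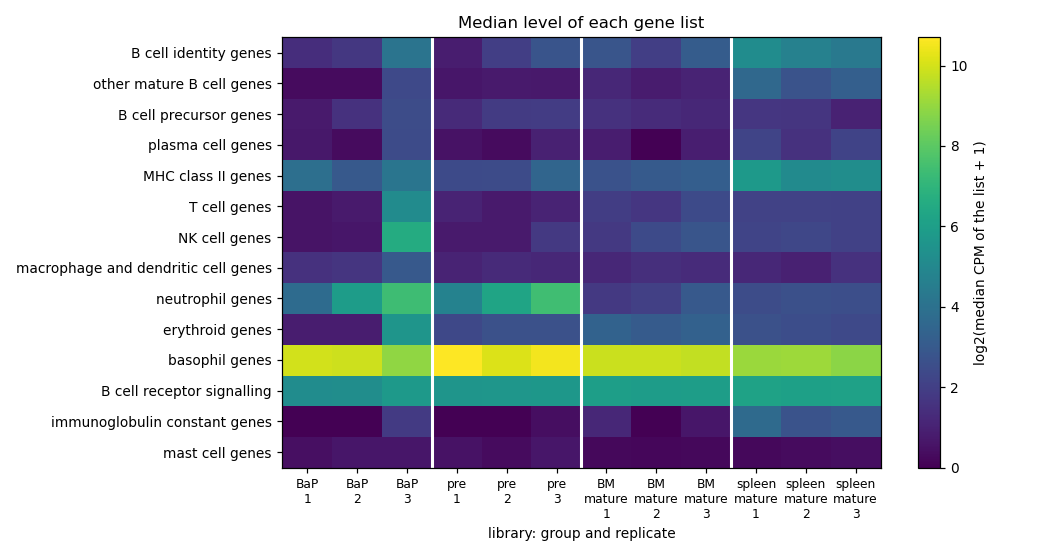
Median CPM over the genes of each list, as log2(median CPM + 1) in colour, for the 12 libraries. BaP replicate 3 was high for the T, NK and erythroid cell lists as well as the B and plasma cell lists, with a T cell median of 35.0 CPM against 3.17 to 3.34 CPM in the spleen libraries.

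Markers of other cell types were compared in the same libraries, and their part in the results was not tested. In the spleen libraries all 17 T cell genes and all 12 NK cell genes had a count, as in BM mature libraries, with summed levels of 85 to 103 against 103 to 146 CPM and of 90.6 to 118 against 105 to 176 CPM. Against BM mature, 0 of 14 tested T cell genes rose and Thy1 fell (-1.45, adjusted p = 0.00606), and 0 of 12 NK cell genes rose and Nkg7 fell (-0.67, adjusted p = 0.0315), with 0 rising also at an unadjusted p under 0.05 and by limma-voom. DESeq2 gave an adjusted p for 3 genes of each list and called none of them higher. When BaP replicate 3 was left out, 2 T cell genes rose, where 7.99% of all tested genes were called higher. With all 12 libraries 3.16% of all tested genes were called higher and 4.67% lower. Counts of 0 or 1 in lists this short lie near those shares. The log2 fold changes were also imprecise, as for Trbc1 (1.045, SE 1.183, libraries not overlapping), Cd3g (0.284, SE 1.262) and Klrd1 (-0.195, SE 1.337). None of the 11 tested macrophage and dendritic cell genes was called by edgeR (47.9 to 49.7 against 34.4 to 46.4 CPM in sum), although 4 had an unadjusted p under 0.05 and limma-voom called 1 and DESeq2 1 of the 5 to which it gave an adjusted p. Adgre1, a macrophage receptor, had 15.7 ± 0.358 against 6.32 ± 2.08 CPM (adjusted p = 0.0865) and Ly6c2 9.77 ± 0.575 against 10.7 ± 2.39 CPM. S100a9 of neutrophils had 18.1 ± 1.7 against 28.4 ± 8.57 CPM, and Hbb-bs of red cells 44.0 ± 46.4 against 75.4 ± 5.41 CPM. By the test, 1 of 12 neutrophil genes fell (Mpo, -1.74, adjusted p = 0.0262) and 1 of 7 erythroid genes fell (Car2, -1.11, adjusted p = 0.0267). The 1 tested mast cell gene, Kit, did not pass (adjusted p = 0.678), and Mrgprb1 was below the filter with at most 1.43 CPM in any library. Of 13 basophil genes 4 fell, Prss34 (-2.46, adjusted p = 0.00114), Mcpt8 (-1.41, adjusted p = 0.00606), Fcer1g (-0.67, adjusted p = 0.0335) and Ms4a2 (-0.86, adjusted p = 0.0372), and none rose. Without BaP replicate 3, 7 of the basophil genes, 2 of the neutrophil genes and 3 of the precursor genes fell. In the same fit 3 plasma cell genes rose, and 1 macrophage and dendritic cell gene rose and 1 fell. That fit called 7.99% of all tested genes higher and 10% lower. Hdc, which makes histamine and was the most abundant of the basophil genes in spleen, had 2048 ± 344 against 2237 ± 688 CPM.

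In BaP replicate 3 the other lineages moved with the B cell genes. The T cell list summed to 1140 CPM at its highest in BaPs, the NK cell list to 1650 and the erythroid list to 2480, and each of these maxima was BaP replicate 3. Lck, a T cell kinase, had 117 CPM there against 3.57 and 3.99 in BaP replicates 1 and 2, Klrk1, an NK cell receptor, 164 against 0.713 and 0.704, and the globin Hbb-bs 972 against 0.951 and 0.938. The basophil list was lower there, at a median gene level of 490 CPM against 1010 and 946, as with Prss34 at 16830 CPM against 48430 and 45180. Not every gene of that list was lower, since Itga2 had its BaP maximum of 62.5 CPM in replicate 3. The part of these other cell types in the B cell gene levels of this library was not tested.

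The 10 tested genes whose log2 CPM followed the members' mean most closely over the 12 libraries were led by Ccr7 (r = 0.990) and Ly6d (r = 0.984), followed by Gucy1b1, Mfsd2b, Ptpn12, Pou2af1, Clu, Tubb1, Myl9 and Mylk (r = 0.954 to 0.967). Ccr7, a chemokine receptor that leads lymphocytes to lymphoid organs, had 74, 57 and 58 counts in the spleen libraries, 75 in BaP replicate 3 and at most 10 elsewhere. Ly6d, a surface protein of B-lineage cells, had 35.2, 16.6 and 21 CPM in spleen and 8.62 in BaP replicate 3. Pou2af1 encodes a B cell coactivator of octamer-binding factors. The list depended on its measure, since only 2 of the 10 were also among the first 10 by Spearman's rho and 3 without BaP replicate 3, where Fcrl1, H2-DMb2 and Iglc3 were among those that entered it.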

How the data were processed

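Bulk RNA-seq was performed by the authors on basophil-lineage cells sorted as BaPs, pre-basophils and mature basophils, with TAS-Seq amplification and single-end sequencing. The authors summed mapped reads by gene symbol, and the deposited values are those raw counts. Reads were trimmed with Cutadapt 3.4 and mapped in 1 orientation with Bowtie2 2.4.2 to reference RNA. The study's methods name GRCm38 for this step, whereas the submitters' processing notes name GRCm39. How reads that match several genes were handled is not stated, so near-identical immunoglobulin genes are uncertain. No molecular identifiers are described. Each library was counted as 1 replicate, and groups and replicate numbers came from the sample titles.

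Counts were fitted here in R 4.3.3 with edgeR 4.0.16 (filterByExpr with a minimum count of 10, TMM scaling, quasi-likelihood F test, 1 coefficient per group, all 12 libraries), and Benjamini-Hochberg adjusted p-values over all 15083 tested genes under 0.05 were called. The study's own package, TCC, was not used. CPM divides counts by TMM-scaled library totals, and log2 CPM used a prior count of 2. Alternatives were DESeq2 1.42.0, limma-voom (limma 3.58.1), upper-quartile scaling, library size alone, repeated TMM with a likelihood ratio test (DEGES), no filter, a minimum count of 30, fits of the 2 groups alone, a replicate block, and each library left out. On simulated counts for spleen against BM mature (15083 genes), the test recovered 32% of 2-fold and 96% of 8-fold changed genes, with 8.57% false among those called. The changed genes were drawn at random from all tested genes, so these rates need not hold for the members. Ighm, at 8.11-fold, was not called in the real counts (adjusted p = 0.0606 in edgeR's quasi-likelihood test). 

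The members and gene lists were chosen with earlier results of these data known. From each list were named the gene highest in spleen, the one highest in BaP replicate 3 and the called genes of lowest adjusted p; from all tested genes, the 10 with the highest Pearson r to the members; and the 3 V segments with most counts. Jchain, Dntt, Igll1, Lck, Klrk1, Ighg2b, Igha and Ighv1-53 were chosen after their values were seen. A gene of the lists that the rule names is not reported here. Symbols were located in GENCODE M21 on GRCm38. Deviations from the group means of same-numbered libraries correlated at 0.125 to 0.262 between BaPs and pre-basophils and at 0.138 to 0.223 between pre-basophils and BM mature basophils. The numbers were taken to pair those libraries, but the reported fits hold no term for pairing, which entered only the replicate block. Where spleen was compared, r was 0.008 to 0.09, and the numbers were not taken to pair libraries. Same-numbered libraries still correlated best in spleen against pre-basophil (r = 0.027 to 0.09).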

Additional observations from a re-analysis of the deposited data

How the results depend on the processing

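Every member kept its direction in spleen against BM mature and in spleen against pre-basophil under all alternatives that gave a value. The number of members called in spleen against BM mature was 3 in the reported fit, 5 with DEGES scaling, 5 with a minimum count of 30, 7 without a filter, 7 with the 2 groups alone and 0 to 7 with a library left out. The genes called there were 1181 of 15083 tested in the reported fit and 1452 of 15083 with DEGES scaling. They were 1230 of 11246 with a minimum count of 30, 1796 of 32227 without a filter and 2340 of 14282 with the 2 groups alone. With a library left out they ran from 241 of 14891 to 2653 of 14723. In BaP against pre-basophil, 1 member was called with DEGES scaling, 5 without a filter and 0 to 3 with a library left out. The genes called were 1068 of 15083 in the reported fit, 1295 of 15083 with DEGES scaling and 1620 of 15083 with library size alone. They were 2091 of 32227 without a filter, 375 of 13017 with the 2 groups alone and 382 of 14951 to 1831 of 14723 with a library left out. In pre-basophil against BM mature, 5 members were called without a filter, 2 with the 2 groups alone and 1 to 3 with a library left out. The genes called there were 4112 of 15083 in the reported fit, 4248 of 32227 without a filter and 5108 of 12790 with the 2 groups alone. With a library left out they ran from 2831 of 16380 to 5251 of 14723. Reversed signs in BaP against pre-basophil without BaP replicate 3 were Pax5 -1.10, Ebf1 -0.33, Ms4a1 -0.32, Cd79a -1.29, Cd79b 0.12, Ighm -1.28 and Igkc -3.29, and Cd79b was 0.078 with library size alone. The highest values with another library left out were Pax5 7.29, Ebf1 0.79, Ms4a1 1.45, Cd79a 2.60, Ighm 2.95 and Igkc 10.86, and the lowest for Cd79b was -0.24. In pre-basophil against BM mature, Ebf1 was 0.012 with library size alone, and Igkc ran from -7.84 to 0.028 with a library left out. Without pre-basophil replicate 3 the pre-basophil libraries had no count of Pax5 or Igkc, so those fitted values depend on the prior count and are no bound. Library size alone moved the median of all genes by 0.14, 0.23, 0.22 and -0.08 in the 4 comparisons and the share of higher calls from 40.4%, 39.4%, 59.8% and 44.9% to 60.6%, 79.6%, 82.5% and 35.6%. Without Ighm and Igkc the members' share was 0.0102% in spleen and 0.00256% in BM mature basophils. Of the 10 most similar genes, 2 were shared with Spearman's rho and 3 without BaP replicate 3. The cause of these changes was not tested.

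With a replicate block all 7 members were called in spleen against BM mature, where 1703 of 15083 tested genes were called. Same-numbered libraries did not correlate best throughout in that comparison (r = 0.008 to 0.025). The pairing changed no member's call in BaP against pre-basophil or pre-basophil against BM mature, where 1399 and 4483 of 15083 tested genes were called. The list counts without BaP replicate 3 were chosen after seeing the data. Low counts of Pax5 and Igkc in the BM libraries other than BaP replicate 3 limit the precision of their fold changes, and intervals cover counting error only.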

Other observations

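Several of the genes most similar to the members (Clu, Tubb1, Myl9 and Mylk) are known in platelets and megakaryocytes rather than B cells. Tubb1, a tubulin of platelets, had 107, 204 and 110 counts in spleen replicates 1 to 3, 243 in BaP replicate 3 and at most 18 elsewhere. Further platelet genes were then looked up, chosen after these values were seen. Ppbp had 78.9, 174 and 73.1 CPM in the spleen libraries, 46.3 in BaP replicate 3, 10.2 to 11.4 in the BM mature libraries and at most 3.66 in the others. Gp9 had 10.7, 32.3 and 10.4 CPM in spleen, 8.72 in BaP replicate 3 and at most 5.39 elsewhere, and Gp5 had 8.28, 22.3 and 8.19 CPM in spleen, 13.0 in BaP replicate 3 and at most 2.22 elsewhere. Pf4 did not keep to that order, with 109 CPM in BM mature replicate 1 and 103 in BaP replicate 3 against 30 to 43.7 in the spleen libraries. Tubb1, Ppbp, Gp9 and Gp5 had their highest spleen level in replicate 2, as did Ighm and Igkc, whereas Ms4a1 and Cd79a peaked in spleen replicate 1. The part of platelet RNA in any result was not tested.

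In spleen replicate 2, Igkv8-27 (83.8% of kappa V counts) and Ighv1-53 (60.2% of heavy V counts) stood beside the highest Jchain count of the spleen libraries, 276 against 103 and 39. Spleen replicate 3 had Igkv8-27 at 18.9% and Ighv1-53 at 6.67%.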
